A study of Mus musculus with 8 samples.

Results

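Differentiating mouse fat cells that had received an inhibitor of the microRNA miR-182 were compared directly with cells that had received an inhibitor of miR-203, with no control sample entering the contrast. The contrast covers 4 of the 8 samples of the series, 2 per group, and each group is represented by 1 pooled expression value per gene, in FPKM, the number of sequenced fragments per kilobase of transcript after scaling for library size. A gene was kept where it reached 1 FPKM in either of the 2 groups, and 12907 of 18933 genes did so. Just inside that limit, Tspyl4 stood at 1.00 FPKM with the miR-182 inhibitor and 0.942 FPKM with the miR-203 inhibitor, and just outside it Gm20621 stood at 0.999 and 0.883 FPKM. For each gene the log2 ratio of the miR-182 over the miR-203 inhibitor was taken on FPKM plus 1, so a positive value means a higher level with the miR-182 inhibitor, and the ratio understates differences of genes with low values. A gene is called higher or lower where this ratio passed 1.5-fold.

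The cells were primary cells of the stromal vascular fraction of mouse fat, the fraction that holds fat cell precursors. The labels call the product adipocytes and do not name the depot, while the series title speaks of brown adipocytes. At 80 to 90% confluence the cells were transfected, with Lipofectamine RNAiMAX, with a locked nucleic acid (LNA) inhibitor of miR-182 or of miR-203 at 100 nM. Groups follow the sample titles, since the transfection tag gives only the name of the microRNA. The other 2 groups, cells given a miR-708 inhibitor and control cells titled NC, are no part of the contrast, but their values are set beside it below. The labels do not say what the control cells received. All groups went back to full medium after 8 h, then received for 2 days an induction medium with insulin, dexamethasone, isobutylmethylxanthine and rosiglitazone, and were harvested on day 4. Nothing in the labels says whether replicate samples were separate animals or cultures.

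MicroRNAs are short RNAs that guide Argonaute proteins to messenger RNAs, mostly by pairing of the seed near their 5′ end to the 3′ untranslated region (UTR), and so lower the stability or translation of the target. An LNA inhibitor is a modified antisense oligonucleotide that binds its microRNA and keeps it from pairing. Brown adipocytes burn lipid for heat through uncoupling protein 1 in their many mitochondria, and they share the lipid storage genes of other fat cells. Interferon-stimulated genes are switched on in most cell types by interferon signalling through STAT proteins or by sensing of foreign nucleic acid.

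The mature forms of the 2 microRNAs are given because the seeds set which messages each inhibitor could release. They are printed 5′ to 3′ from RefSeq (GRCm38.p6), with the seed, bases 2 to 8, in capitals. The labels do not say which arm the inhibitors targeted, and the arm usually loaded is shown for each. The seeds of the 2 arms shown differ. Those of the other arms, miR-182-3p (UGGUUCU) and miR-203-5p (GUGGUUC), overlap in sequence, and sites for these arms were not searched.
mmu-miR-182-5p (chr6:30165962-30165986, minus strand): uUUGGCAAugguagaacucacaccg
mmu-miR-203-3p (chr12:112130927-112130948, plus strand): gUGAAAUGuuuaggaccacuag
Neither microRNA gene was analysed here, so how far each inhibitor blocked its target is not known from these values.

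Most genes stood at nearly the same level in both groups. The median log2 ratio over the 12907 measured genes was -0.01, and the 25th and 75th percentiles were -0.12 and 0.12. Past 1.5-fold, 281 genes (2.18%) were higher with the miR-182 inhibitor and 331 (2.56%) were lower. Past 2-fold the numbers were 72 higher (0.558%) and 110 lower (0.852%). With 1 pooled value per group there is no spread between replicates and no test of this contrast, and the sequencing depth is unknown, so each ratio describes these 2 pools and has no replicate check. The width of the distribution serves as a guide to size: among protein-coding genes at 50 FPKM or more, 95% of ratios lay between -0.39 and 0.33, and among those at 1 to 5 FPKM between -0.56 and 0.62.

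Ratios were spread more widely for small RNAs than for messenger RNAs. Of 11167 protein-coding genes, 162 (1.45%) were higher and 145 (1.3%) were lower past 1.5-fold. Of 256 small structural RNAs and microRNA genes, 48 (18.8%) were higher and 76 (29.7%) were lower, and the share past 1.5-fold was 42.9% even at 50 FPKM or more. Many of these transcripts are shorter than the fragments that a messenger RNA library is made to hold, and many lie inside other genes. They filled most of the extremes at 5 FPKM or more: 9 of the 12 highest ratios and 8 of the 12 lowest.

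**Figure D1:**
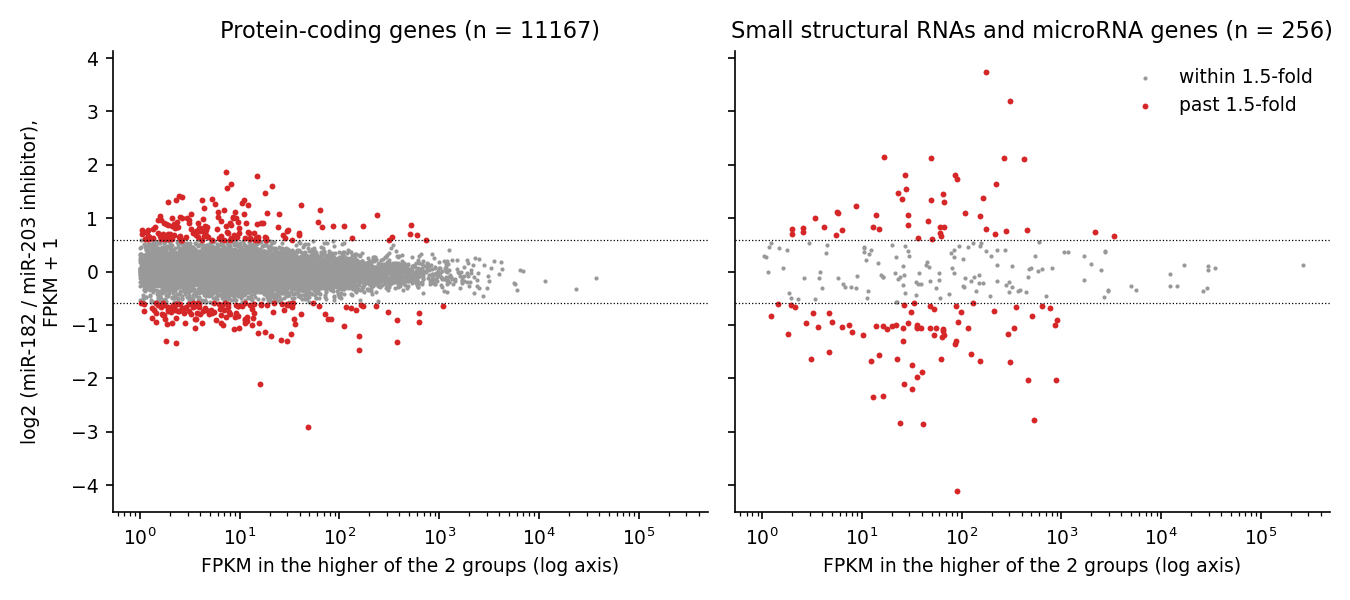
Each point is a measured gene. The x axis gives its FPKM in the higher of the 2 groups (log axis), the y axis the log2 ratio of the miR-182 over the miR-203 inhibitor on FPKM plus 1, and dotted lines mark 1.5-fold. Protein-coding genes (left) narrow around 0 as the level grows, while small structural RNAs and microRNA genes (right) stay wide at every level.

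The interferon effectors, which protect cells against viruses, were all displaced to the side of the miR-182 inhibitor. All 38 effectors with a row in the tables had a ratio above 0, and 20 of them were higher past 1.5-fold, none lower, against 1.55% higher among all 18933 genes without a level limit. The median over the 38 was 0.62. The list has 29 members at 1 FPKM or more in either group, 8 of which reached that level only with the miR-182 inhibitor, and over these 29 the median was 0.78 with 19 higher.

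Isg15, a ubiquitin-like protein that is attached to other proteins during infection, stood at 14.9 FPKM with the miR-182 inhibitor, 3.58 FPKM with the miR-203 inhibitor, 3.46 FPKM with the miR-708 inhibitor and 1.13 FPKM in control cells. The miR-182 value was 4.16 times the miR-203 value, while the miR-203 and miR-708 values lay side by side. Xaf1, an interferon-induced promoter of apoptosis, had the largest ratio of the list, 1.87, with 7.31 FPKM under the miR-182 inhibitor, 1.27 FPKM under the miR-203 inhibitor, 2.24 FPKM under the miR-708 inhibitor and 0.640 FPKM in control cells. Rtp4, an interferon-induced chaperone-like protein, stood at 8.13 FPKM with the miR-182 inhibitor, 1.93 FPKM with the miR-203 inhibitor, 2.17 FPKM with the miR-708 inhibitor and 0.261 FPKM in control cells. Oasl2, of the oligoadenylate synthetase family that senses double-stranded RNA, gave 7.53, 1.88, 2.53 and 0.247 FPKM in the same order of groups. In all 4 genes the miR-182 inhibitor group was the highest of the 4 and the control the lowest.

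Ifi27l2a and Bst2, more abundant than the effectors above, were also higher past 1.5-fold, with smaller ratios. Ifi27l2a, a small interferon-induced membrane protein and the most abundant of the list, stood at 241 FPKM with the miR-182 inhibitor, 115 FPKM with the miR-203 inhibitor, 124 FPKM with the miR-708 inhibitor and 25.9 FPKM in control cells, a log2 ratio of 1.06. Bst2, or tetherin, which holds budding virus on the cell surface, stood at 64.2 FPKM with the miR-182 inhibitor, 28.1 FPKM with the miR-203 inhibitor, 28.8 FPKM with the miR-708 inhibitor and 8.53 FPKM in control cells, a ratio of 1.16. The guanylate-binding protein Gbp3 (5.22 FPKM with the miR-182 inhibitor, 1.42 FPKM with the miR-203 inhibitor) and the immunity-related GTPase Irgm1 (6.12 and 2.28 FPKM) had ratios of 1.36 and 1.12. At the other end of the list, Parp12 (0.28) and Tor3a (0.03) differed little.

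Fewer of the sensors and transcription factors upstream of these genes passed the threshold. Of 22 with a row, 5 were higher past 1.5-fold and none lower, against 1.55% higher among all genes without a level limit. The median over the 16 measured ones was 0.35. That median was 0.10 over members at 5 FPKM or more in either group and 0.19 with a pseudocount of 5. Irf7, the interferon-induced regulator of interferon genes, stood at 20.9 FPKM with the miR-182 inhibitor, 6.23 FPKM with the miR-203 inhibitor, 9.33 FPKM with the miR-708 inhibitor and 2.70 FPKM in control cells, and its locus in the tables is shared with another gene. Ifih1, the cytosolic sensor of long double-stranded RNA also called MDA5, stood at 4.15, 1.04, 1.25 and 0.808 FPKM in the same order. The other 3 past 1.5-fold were Zbp1 (a sensor of left-handed nucleic acid), Irf9 and Stat2, with ratios of 1.00, 0.92 and 0.72. Irf9 and Stat2 are parts of the complex that carries type I interferon signals. Other members stood within 1.5-fold: Irf3 at 0.08, the receptor chains Ifnar1 and Ifnar2 at 0.10 each, the adaptor Mavs at -0.07, the RNA sensor Ddx58 at 0.29 and Irf1, itself an interferon-inducible factor, at 0.00.

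Antigen presentation genes followed the effectors at a smaller size. All 19 with a row were measured in both groups, and the median was 0.59. Of these, 10 were higher past 1.5-fold and none lower, against 2.18% higher among all measured genes. The classical class I genes H2-D1 (313 FPKM with the miR-182 inhibitor, 206 FPKM with the miR-203 inhibitor) and H2-K1 (426 and 345 FPKM) had ratios of 0.60 and 0.30. B2m, the light chain of class I molecules, stood at 735 FPKM with the miR-182 inhibitor, 487 FPKM with the miR-203 inhibitor, 512 FPKM with the miR-708 inhibitor and 253 FPKM in control cells. Psmb8, an inducible subunit of the immunoproteasome, stood at 8.96 FPKM with the miR-182 inhibitor and 3.61 FPKM with the miR-203 inhibitor, in a locus shared by 4 genes. The non-classical genes H2-Q6, H2-Q7 and H2-T23 had ratios of 1.28, 1.08 and 0.75, and their reads may be divided among near-identical copies. Psme2, an activator subunit of the proteasome, did not follow, with 442 FPKM under the miR-182 inhibitor and 472 FPKM under the miR-203 inhibitor.

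Chemokines and acute phase genes had ratios above 0 for 22 of the 26 with a row. Of these 26, 7 were higher past 1.5-fold and none lower, against 1.55% higher among all genes without a level limit. In this list 5 members reached 1 FPKM only with the miR-182 inhibitor. The median over the 21 measured was 0.33. Ccl8, a chemokine that attracts monocytes, stood at 11.0 FPKM with the miR-182 inhibitor, 4.66 FPKM with the miR-203 inhibitor, 5.04 FPKM with the miR-708 inhibitor and 1.32 FPKM in control cells. Ccl9 had a different order, with 1.84 FPKM under the miR-182 inhibitor, 0.529 FPKM under the miR-203 inhibitor, 2.07 FPKM under the miR-708 inhibitor and 0.794 FPKM in control cells, so there the miR-203 group was the lowest. Complement component C3 (284 and 235 FPKM) and Lcn2 (13.4 and 17.4 FPKM), an iron-binding acute phase protein, lay within 1.5-fold, on opposite sides.

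**Figure D2:**
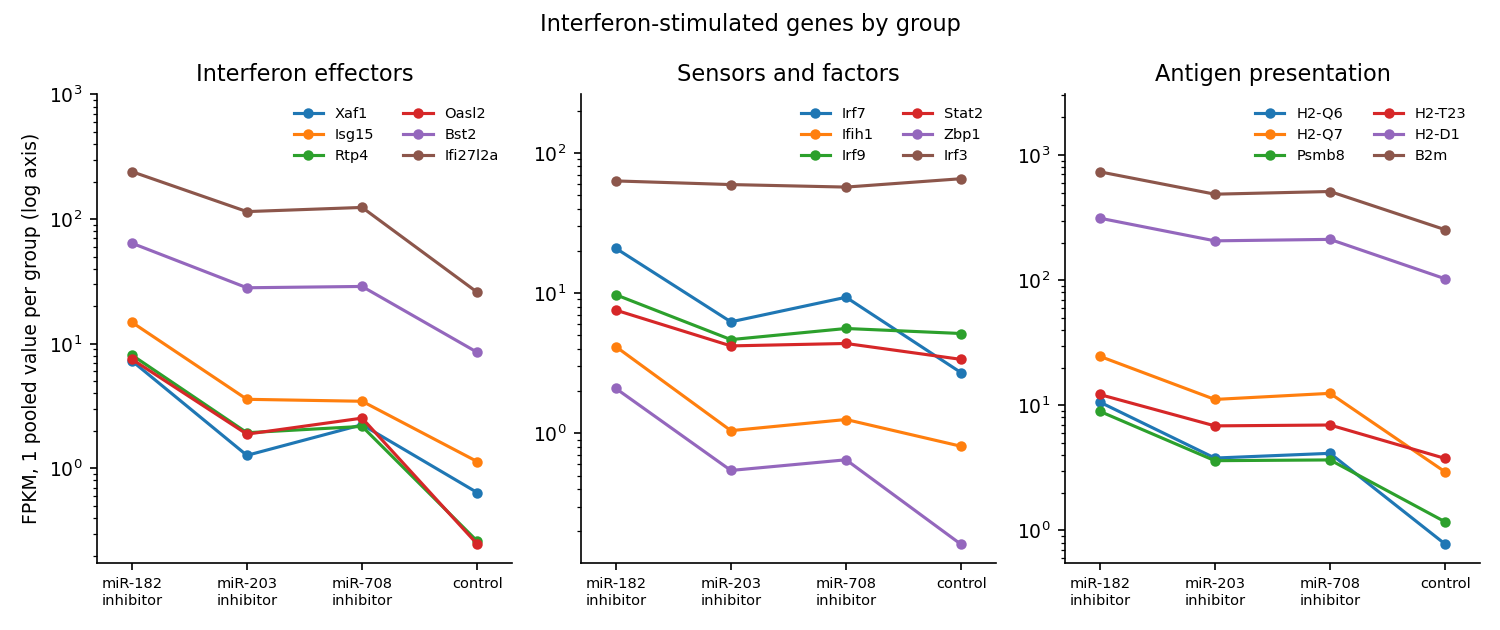
FPKM (log axis), 1 pooled value per group, for 6 genes each of interferon effectors, interferon sensors and factors, and antigen presentation. Lines only join the values of a gene and imply no order of groups. Isg15 stands at 14.9 FPKM in the miR-182 inhibitor group and 3.58 FPKM in the miR-203 inhibitor group, which lies beside the miR-708 group, while Irf3 is nearly level.

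Promoters of these genes were searched on both strands for GAAA, any 2 bases and GAAA again, a spelling of the interferon-stimulated response element, in windows from 250 bases before to 50 bases after the annotated start (RefSeq, GRCm38.p6). The motif was chosen after the values were seen. It stood in 1131 of 32851 promoters (3.44%) and in at least 1 promoter of 1079 of 27025 gene symbols (3.99%). Of the listed genes with a promoter in that table, it was present for 14 of 25 interferon effectors, 5 of 16 antigen presentation genes and 4 of 17 sensors and factors. On the same count it was present for 3 of 15 chemokine and acute phase genes, 2 of 19 TGF-beta and BMP genes, 2 of 22 matrix genes and 2 of 22 integrated stress response genes, and for none of 17 brown adipocyte genes or 15 collagens. Among measured genes with a promoter, 317 carried the motif and 21 of them were higher past 1.5-fold (6.62%) and 4 lower (1.26%), while 99 of 8390 genes without it were higher (1.18%). The 317 include 11 interferon effectors, 4 sensors and factors and 5 antigen presentation genes, whose ratios are described above. The larger share of higher genes with the motif thus partly repeats those lists and is no separate support. The median ratio of the 317 was 0.03.

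Promoters of 3 of these genes are given, from effectors whose levels differed more than 2-fold, with the motif in capitals (it reads TTTC, 2 bases and TTTC where it lies on the reverse strand) and overlapping matches run together. Each reads 5′ to 3′ on the gene's own strand.
Isg15 (chr4:156200769-156201068, minus strand): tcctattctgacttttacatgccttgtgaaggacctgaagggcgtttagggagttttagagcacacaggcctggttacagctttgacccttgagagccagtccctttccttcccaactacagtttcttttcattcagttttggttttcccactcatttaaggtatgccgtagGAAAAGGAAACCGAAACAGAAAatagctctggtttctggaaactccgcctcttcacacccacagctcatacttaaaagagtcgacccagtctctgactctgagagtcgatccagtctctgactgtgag
Gbp3 (chr3:142559794-142560093, plus strand): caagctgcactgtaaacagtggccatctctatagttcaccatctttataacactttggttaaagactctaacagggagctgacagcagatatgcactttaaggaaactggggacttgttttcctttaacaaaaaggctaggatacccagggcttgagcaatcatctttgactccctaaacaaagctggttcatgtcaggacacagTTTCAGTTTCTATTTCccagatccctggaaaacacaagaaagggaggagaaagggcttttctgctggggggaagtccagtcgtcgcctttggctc
Bst2 (chr8:71537423-71537722, minus strand): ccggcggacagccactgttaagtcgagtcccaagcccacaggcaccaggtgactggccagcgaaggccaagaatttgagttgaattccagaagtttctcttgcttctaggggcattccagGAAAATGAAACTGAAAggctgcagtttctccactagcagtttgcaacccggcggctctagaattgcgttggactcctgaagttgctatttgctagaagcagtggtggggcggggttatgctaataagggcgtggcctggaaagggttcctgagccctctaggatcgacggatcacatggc
Isg15 holds 3 overlapping matches, and Gbp3 and Bst2 hold 2 each. Such a match describes the letters only and is no evidence of binding in these cells.

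Thermogenic genes lay on the other side, with a few members far from the rest. Of 22 brown adipocyte genes with a row, 3 were lower past 1.5-fold, none higher, against 1.83% lower among all genes without a level limit, and the median over the 20 measured ones was -0.13. Ucp1, uncoupling protein 1 (chr8:83290348-83298456 in mm10), stood at 67.7 FPKM with the miR-182 inhibitor, 159 FPKM with the miR-203 inhibitor, 146 FPKM with the miR-708 inhibitor and 203.03 FPKM in control cells. Its miR-203 value was 2.34 times its miR-182 value, a log2 ratio of -1.22. Cidea, a lipid droplet protein of brown fat, had the lowest ratio of the list, -1.46, with 56.2 FPKM under the miR-182 inhibitor, 157 FPKM under the miR-203 inhibitor, 146 FPKM under the miR-708 inhibitor and 297 FPKM in control cells. Its locus is shared with another gene. Cox8b, a subunit of cytochrome oxidase found in heart, muscle and brown fat, stood at 367 FPKM with the miR-182 inhibitor, 631 FPKM with the miR-203 inhibitor, 589 FPKM with the miR-708 inhibitor and 658 FPKM in control cells. For Cox8b the miR-203, miR-708 and control pools lay close together and the miR-182 pool alone stood apart.

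In the authors' deposited table for the miR-182 inhibitor against control, Ucp1, Cidea and Cox8b each had a q-value of 0.00176. In the authors' deposited table for the miR-203 inhibitor against control, the q-values were 0.0493 for Ucp1, 0.00176 for Cidea and 0.958 for Cox8b. Those tables test each inhibitor against the control and not the 2 inhibitors against each other.

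The regulators of the brown programme did not share the size of these differences. Ppargc1a, the coactivator of mitochondrial genes, stood at 21.1 FPKM with the miR-182 inhibitor and 23.1 FPKM with the miR-203 inhibitor. Prdm16, a transcription cofactor of brown fat fate, stood at 7.26 and 6.11 FPKM, on the higher side with a ratio of 0.22. Ebf2 (-0.01), Zic1 (0.25) and Dio2 (0.02), a further 2 transcription factors and the enzyme that activates thyroid hormone, also lay within 1.5-fold. Fgf21, a secreted metabolic hormone, came closest to the threshold with 20.9 FPKM under the miR-182 inhibitor and 31.4 FPKM under the miR-203 inhibitor, a ratio of -0.56.

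General adipocyte genes were nearly level, with 13 of the 24 that had a row above 0 and 11 below and a median of 0.04 over the 23 measured. Fabp4, the fatty acid binding protein of fat cells, stood at 34042 FPKM with the miR-182 inhibitor, 37047 FPKM with the miR-203 inhibitor, 42888 FPKM with the miR-708 inhibitor and 37475 FPKM in control cells. Pparg, the master regulator of fat cell differentiation, stood at 139 FPKM with the miR-182 inhibitor and 130 FPKM with the miR-203 inhibitor. Cebpa (343 and 307 FPKM), its partner factor, and Adipoq (1904 and 1644 FPKM), which encodes adiponectin, had ratios of 0.16 and 0.21. Both groups thus held fat cell transcripts at high levels. Pck1, the enzyme that supplies glycerol for triglyceride in fat, was the 1 member past 1.5-fold, with 73.7 FPKM under the miR-182 inhibitor, 117 FPKM under the miR-203 inhibitor, 114 FPKM under the miR-708 inhibitor and 129 FPKM in control cells. Among 17 lipid droplet genes with a row, Cidea alone passed 1.5-fold, and the median over the 16 measured ones was -0.04. For both lists the share to set beside this is 1.83% lower among all genes without a level limit. Its relative Cidec stood at 1957 FPKM with the miR-182 inhibitor and 1741 FPKM with the miR-203 inhibitor, a ratio of 0.17.

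**Figure D3:**
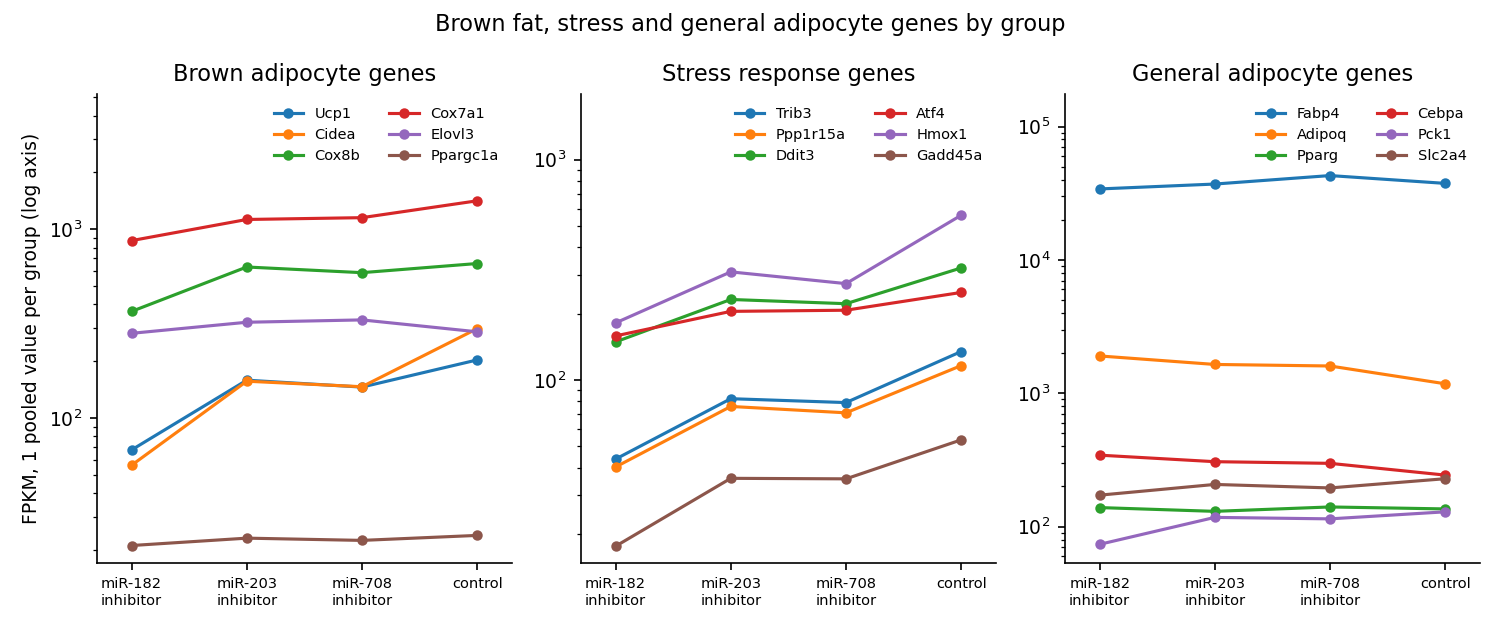
FPKM (log axis), 1 pooled value per group, for 6 brown adipocyte genes, 6 stress response genes and 6 general adipocyte genes. Lines only join the values of a gene and imply no order of groups. Ucp1 and Cidea stand at 67.7 and 56.2 FPKM in the miR-182 inhibitor group and at 159 and 157 FPKM in the miR-203 inhibitor group, while Pparg and Ppargc1a are nearly level.

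Genes of the integrated stress response, in which phosphorylation of a translation initiation factor raises ATF4 and its targets, mostly stayed within 1.5-fold. Of 25, 3 were lower and 1 higher past that threshold, against 2.56% lower and 2.18% higher among all measured genes. A ratio below 0 stood in 23 of them, and the median was -0.25. Ppp1r15a, which directs the phosphatase that ends the response, stood at 40.4 FPKM with the miR-182 inhibitor, 75.9 FPKM with the miR-203 inhibitor, 71.1 FPKM with the miR-708 inhibitor and 116 FPKM in control cells, in a locus shared by 4 genes. Trib3, a pseudokinase induced by the response, stood at 43.8, 82.4, 79.1 and 135 FPKM in the same order. Ddit3, the factor also called CHOP, had 149 FPKM with the miR-182 inhibitor and 232 FPKM with the miR-203 inhibitor, a ratio of -0.64. Atf4 itself stood at 159 and 205 FPKM, and its target Asns, asparagine synthetase, at 202 and 234 FPKM, both within 1.5-fold. Cbs, an enzyme of cysteine synthesis, was the 1 higher member, with 4.33 FPKM under the miR-182 inhibitor, 1.69 FPKM under the miR-203 inhibitor, 3.35 FPKM under the miR-708 inhibitor and 3.64 FPKM in control cells. There the miR-203 pool stood below the other 3, which lay close together.

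Folding factors of the endoplasmic reticulum were level, with 9 of 20 above 0 and 11 below and a median of -0.01. Hmox1, heme oxygenase, stood at 181.8 FPKM with the miR-182 inhibitor, 310 FPKM with the miR-203 inhibitor, 274 FPKM with the miR-708 inhibitor and 559 FPKM in control cells. It was the only one of 28 antioxidant genes past 1.5-fold, where 2.56% of all measured genes were lower, and the median of the 28 was -0.03. Gadd45a, a growth arrest gene induced by DNA damage and stress, stood at 17.6 FPKM with the miR-182 inhibitor and 35.9 FPKM with the miR-203 inhibitor, in a locus shared with another gene, and was the 1 of 18 genes of the CDK inhibitor and p53 target list past 1.5-fold.

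Mitochondrial genes stayed within 1.5-fold in all but 2 of the members listed here, with ratios mostly just below 0. Past 1.5-fold, 1.3% of protein-coding genes and 2.56% of all measured genes were lower, so that count does not set these lists apart. All 37 complex I subunits had a ratio below 0, the lowest at -0.31 and the highest just under 0, with none past 1.5-fold and a median of -0.14. Of 41 subunits of complexes II to V, 38 were below 0, Cox8b alone passed 1.5-fold, and the median was -0.16. Of 19 genes of the tricarboxylic acid (TCA) cycle and pyruvate oxidation, 18 were below 0 with a median of -0.17. Of 25 fatty acid oxidation genes, 21 were below 0 with a median of -0.13, and Acot2, a mitochondrial acyl-CoA thioesterase, passed the threshold with 36.0 FPKM under the miR-182 inhibitor and 54.5 FPKM under the miR-203 inhibitor. The medians of the same lists against the control were -0.26 for complex I with the miR-182 inhibitor and -0.07 with the miR-203 inhibitor, and these share the control pool. Genes of such a complex vary together, so the number of members on one side is not a number of independent observations.

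Matrix, precursor and cell division genes lay on the higher side by similarly small amounts. The median was 0.22 for 34 matrix genes, 0.17 for 17 measured collagens and 0.23 for 35 mitosis genes, with none past 1.5-fold in these 3 lists. Col3a1 (841 FPKM with the miR-182 inhibitor, 668 FPKM with the miR-203 inhibitor), a fibrillar collagen, and Timp1 (75.1 and 51.6 FPKM), an inhibitor of matrix proteases, had ratios of 0.33 and 0.53. Of 30 DNA replication genes, 25 were above 0 with a median of 0.16, and Lig1, the ligase that joins replicated fragments, was the 1 past 1.5-fold, with 8.53 FPKM under the miR-182 inhibitor, 3.68 FPKM under the miR-203 inhibitor, 3.87 FPKM under the miR-708 inhibitor and 3.81 FPKM in control cells. The miR-182 pool stood apart from 3 close values in that gene, whose locus is shared with another gene. Past 1.5-fold, 2.18% of all measured genes were higher.

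Of 20 preadipocyte and progenitor genes with a row, 15 were above 0, and the median over the 15 measured ones was 0.21. One member was higher past 1.5-fold, against 1.55% higher among all genes without a level limit. Ly6a, also called Sca-1 and itself interferon-inducible, was the 1 past 1.5-fold, at 112 FPKM with the miR-182 inhibitor, 61.6 FPKM with the miR-203 inhibitor, 59.5 FPKM with the miR-708 inhibitor and 29.1 FPKM in control cells. Pdgfra (20.8 and 16.6 FPKM) and Pdgfrb (11.5 and 9.91 FPKM), receptors of fat cell precursors, had ratios of 0.30 and 0.20. In bulk samples such as these, fewer cells of a type and less RNA per cell cannot be told apart.

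Markers of cell types other than fat cells and their precursors were low. Of 65 markers in 7 lists, 38 had a row and 12 reached 1 FPKM in either group. The 10 macrophage markers with a row summed to 5.09 FPKM with the miR-182 inhibitor, 7.95 FPKM with the miR-203 inhibitor, 6.24 FPKM with the miR-708 inhibitor and 8.42 FPKM in control cells. Only 2 of the 10 reached 1 FPKM in either group, and 3 had a ratio above 0 and 7 below. Among the macrophage markers Emr1, which encodes F4/80, stood at 0.0191 FPKM with the miR-182 inhibitor and 0.0139 FPKM with the miR-203 inhibitor, and Lyz2, lysozyme, was lower past 1.5-fold at 1.46 and 3.24 FPKM. The lymphocyte markers Cd4 and Cd8a were below 0.1 FPKM in all groups. The endothelial list summed to 33.7 FPKM with the miR-182 inhibitor and 24.9 FPKM with the miR-203 inhibitor, nearly all of it Egfl7, while its defining members Pecam1 and Cdh5 stayed below 1 FPKM. Of 6 skeletal muscle markers with a row, 3 had a ratio above 0 and 3 below. Mylpf, a fast muscle light chain, was the 1 past 1.5-fold, higher at 6.90 and 2.55 FPKM. The mesothelial, red blood cell and neural lists had no member past 1.5-fold, with sums of 9.14, 1.34 and 12.3 FPKM with the miR-182 inhibitor, against 7.60, 0.981 and 12.9 FPKM with the miR-203 inhibitor. Whether small numbers of other cells bear on any list above was not tested.

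In each of the remaining lists at most 1 member passed 1.5-fold. Among all measured genes 2.18% were higher and 2.56% lower, so 1 member in lists of this length does not set a list apart. The medians were 0.00 for the Wnt pathway, -0.08 for glycolysis and hypoxia, -0.07 for fatty acid and triglyceride synthesis and -0.08 for CDK inhibitors and p53 targets. Porcn, the enzyme that acylates Wnt proteins for secretion, was the 1 of 27 Wnt pathway genes with a row to do so, at 7.65 FPKM with the miR-182 inhibitor, 17.99 FPKM with the miR-203 inhibitor, 13.8 FPKM with the miR-708 inhibitor and 46.4 FPKM in control cells. Ankrd37, a hypoxia-induced gene, was the 1 of 23 glycolysis and hypoxia genes, with 22.5 and 34.4 FPKM. Of the 21 measured genes of fatty acid and triglyceride synthesis the 1 past 1.5-fold was Pck1, named above. None of the measured genes of cholesterol synthesis, transforming growth factor and bone morphogenetic protein signalling, insulin signalling, Hox genes, the circadian clock, smooth muscle, white-fat selective genes or the microRNA machinery passed it, and these lists' medians lay between -0.02 and 0.15.

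**Figure D4:**
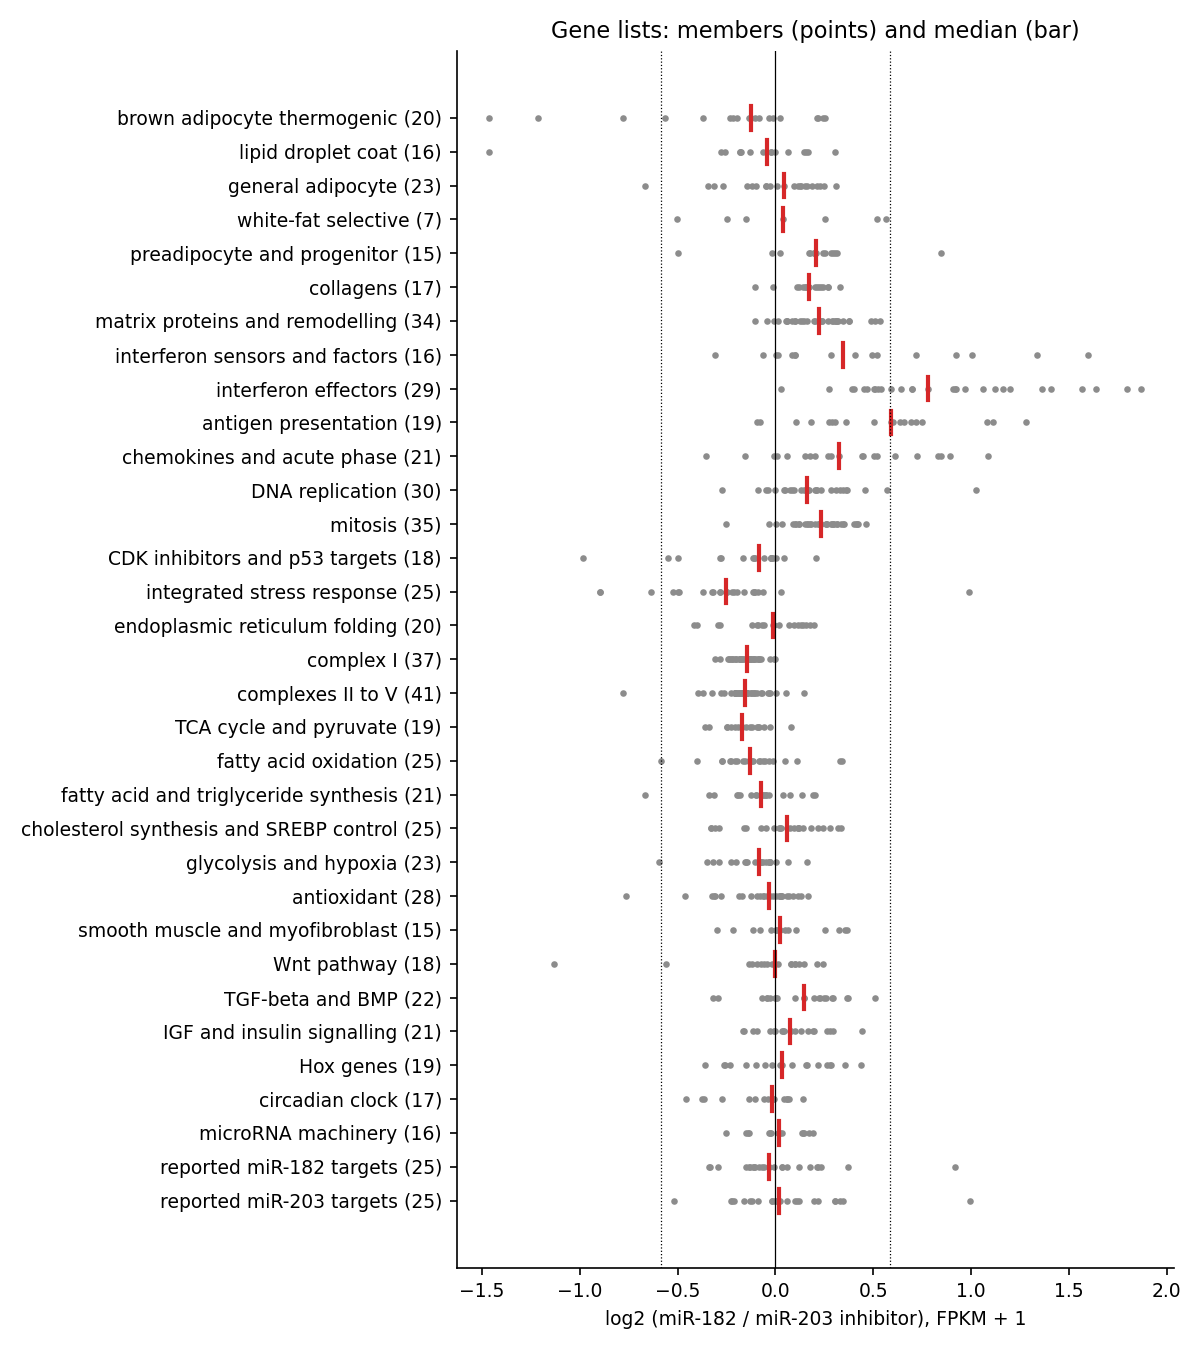
Log2 ratio of the miR-182 over the miR-203 inhibitor on FPKM plus 1 for the members of each list with at least 5 measured genes (number measured in brackets). Points are genes, red bars medians, dotted lines 1.5-fold. The interferon effector median stands at 0.78, the integrated stress response median at -0.25, and the mitochondrial lists form narrow groups just below 0.

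The seeds allow the contrast to be read by target site, with the genes of each microRNA set against the rest. Sites were searched in 1 annotated 3′ UTR per gene (GENCODE M21), for 11071 measured genes, as the 8 bases that pair with the seed and end in A: TTGCCAAA for miR-182-5p and CATTTCAA for miR-203-3p. The miR-182 site was present in 493 of these genes (4.45%) and the miR-203 site in 491 (4.44%), and 47 genes had both.

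Genes with a miR-182 site were not displaced towards the miR-182 inhibitor. Their median log2 ratio was -0.03, against 0.00 for the 10578 genes without the site, with 6 higher (1.22%) and 2 lower (0.406%) past 1.5-fold, where 1.4% and 1.21% of all genes with an annotated 3′ UTR were higher and lower. Genes with a miR-203 site had a median of -0.01, against 0.00 for the 10580 genes without it, with 8 higher (1.63%) and 6 lower (1.22%). Site-bearing genes have longer 3′ UTRs, with medians of 2365 bases for miR-182 and 2660 bases for miR-203, against 910 and 911.5 bases without the site. Among genes with 3′ UTRs of 1996 bases or more, the median was -0.03 for 295 genes with the miR-182 site and -0.01 for 2472 without it. Among the same genes it was -0.01 for 326 genes with the miR-203 site and -0.01 for 2441 without it.

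**Figure D5:**
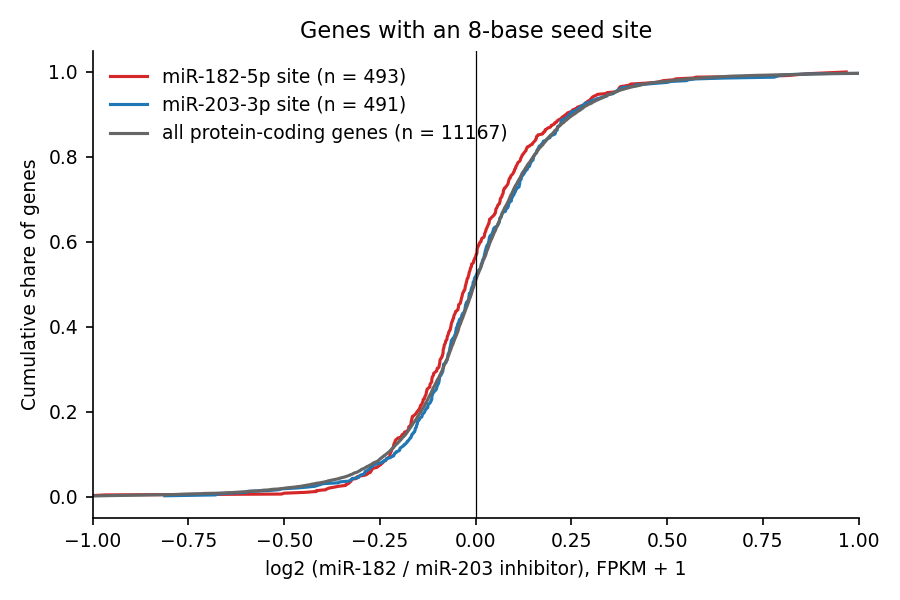
Cumulative share of genes (y axis) by log2 ratio of the miR-182 over the miR-203 inhibitor on FPKM plus 1 (x axis, shown from -1 to 1) for genes with an 8-base miR-182-5p site (red), with a miR-203-3p site (blue) and for all protein-coding genes (grey). The 3 curves run close together, with medians of -0.03, -0.01 and 0.00.

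Single genes with a site are given with the site in capitals and 10 bases on each side, since a message with such a site can be a direct target of the microRNA that each inhibitor binds. The first 3 have the miR-182 site and the last 3 the miR-203 site.
Mitf (chr6:98020931-98020958, plus strand): ccttctgactTTGCCAAAaactgtgcaa
Lats2, miR-182 site (chr14:57690451-57690478, minus strand): taagtcagctTTGCCAAAacattgacat
Gpd2 (chr2:57368563-57368590, plus strand): gctggtctgtTTGCCAAAggcccttctc
Lats2, miR-203 site (chr14:57690834-57690861, minus strand): tattttcccaCATTTCAAattgtgatgt
Rtp4 (chr16:23613509-23613536, plus strand): aaatagatgtCATTTCAAtaggacagtg
Gabarapl1 (chr6:129542179-129542206, plus strand): tctcacatgaCATTTCAAttcatctcta

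Mitf, the melanocyte and lysosome transcription factor and a reported miR-182 target, had the largest positive ratio among genes with a miR-182 site at 5 FPKM or more. It stood at 8.08 FPKM with the miR-182 inhibitor, 3.81 FPKM with the miR-203 inhibitor, 2.84 FPKM with the miR-708 inhibitor and 4.29 FPKM in control cells, so the miR-182 pool stood above the other 3. In the authors' deposited tables its q-value was 0.0172 for the miR-182 inhibitor against control and 0.849 for the miR-203 inhibitor against control. The next in order were Rufy2 (8.26 and 4.08 FPKM), Lats2 (9.86 and 5.16 FPKM) and Palld (10.9 and 6.98 FPKM). Lats2, a kinase of the Hippo pathway, carries a site for each microRNA, and the control value of 6.98 FPKM lies between its 2 inhibitor values. At the other end were Cdsn (2.87 and 6.57 FPKM), Gpd2 (54.7 and 111 FPKM), Slc23a2 (4.38 and 6.18 FPKM) and Tbp (15.1 and 20.4 FPKM). Gpd2, the mitochondrial glycerol phosphate dehydrogenase, stood at 71.1 FPKM with the miR-708 inhibitor and 78.7 FPKM in control cells, so the control lay between its miR-182 and miR-203 values. Mitf, Rufy2, Lats2, Gpd2, Slc23a2 and Tbp each lie in a locus shared with at least 1 other gene.

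Among genes with a miR-203 site, a release by the miR-203 inhibitor would show as a negative ratio. The lowest ratios at 5 FPKM or more were those of Gabarapl1 (80.8 FPKM with the miR-182 inhibitor, 130.0 FPKM with the miR-203 inhibitor), an autophagy protein, Strbp (5.73 and 9.55 FPKM), Trmt10a (7.54 and 11.4 FPKM) and Spopl (7.88 and 11.1 FPKM). In control cells Gabarapl1 stood at 231 FPKM and Strbp at 11.6 FPKM, above both inhibitor groups, while Trmt10a stood at 8.56 FPKM and Spopl at 10.7 FPKM, between the 2 inhibitor groups. Among the highest were Rtp4, whose values are given among the effectors, Lats2 and Hnrnpr (54.2 and 36.1 FPKM). Gabarapl1 and Spopl each lie in a locus shared with another gene.

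Genes reported elsewhere as targets of either microRNA were level as lists. The median was -0.03 for the 25 measured reported miR-182 targets, where Mitf was the 1 past 1.5-fold, and 0.02 for the 25 measured reported miR-203 targets, where Socs3 was. Both were higher, as were 2.18% of all measured genes. Socs3, a brake on cytokine signalling, stood at 9.19 FPKM with the miR-182 inhibitor, 4.11 FPKM with the miR-203 inhibitor, 8.43 FPKM with the miR-708 inhibitor and 2.90 FPKM in control cells, so it was the miR-203 pool that had the lowest value of the 3 inhibitor groups. Insig1, which stands on both lists, inhibits the processing of sterol regulatory element binding proteins. It stood at 313 FPKM with the miR-182 inhibitor, 270 FPKM with the miR-203 inhibitor, 273 FPKM with the miR-708 inhibitor and 219 FPKM in control cells.

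The protein-coding genes with the widest ratios outside these lists had different orders of groups. Those named here were chosen after their values were seen. In Ero1l, Cystm1 and Mreg the miR-182 pool was the lowest and the control the highest, while in Uba7 the miR-182 pool alone stood apart. Ero1l, the oxidase that forms disulfide bonds in the endoplasmic reticulum, stood at 323 FPKM with the miR-182 inhibitor, 623 FPKM with the miR-203 inhibitor, 585 FPKM with the miR-708 inhibitor and 1149.8 FPKM in control cells. Uba7, the enzyme that activates Isg15 for conjugation, stood at 10.9, 3.69, 3.17 and 3.25 FPKM in the same order, in a locus shared by 7 genes. Cystm1 (11.6 and 30.1 FPKM, 60.1 FPKM in control cells) and Mreg (3.63 and 8.79 FPKM, 23.7 FPKM in control cells) had the order of Cidea. By contrast Apbb2 stood at 18.99 FPKM with the miR-182 inhibitor, 8.39 FPKM with the miR-203 inhibitor, 14.7 FPKM with the miR-708 inhibitor and 18.7 FPKM in control cells, and Extl2 at 6.32, 15.2, 5.67 and 5.62 FPKM in the same order, so in both of these the miR-203 pool was the one set apart.

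Several of the lowest ratios came from the miR-203 pool alone. Mir5105 was listed at 61714 FPKM with the miR-182 inhibitor, 178253 FPKM with the miR-203 inhibitor, 62653 FPKM with the miR-708 inhibitor and 66947 FPKM in control cells, and it made up 4.90% of the summed FPKM of the miR-182 pool and 12.7% of that of the miR-203 pool. Lars2, mitochondrial leucyl-tRNA synthetase, stood at 151, 378, 157 and 147 FPKM in the same order, and Gm15662 at 5881, 15306, 5293 and 5995 FPKM. The protein-coding median was 0.00, and how the tables were scaled between groups is not given in the sources used here, so the part of this share in the other ratios was not tested.

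The 12 lowest ratios at 5 FPKM or more were those of Snora43, Gm21961, n-R5s115, Snora3, Mir677, Gm22356, Gm23938, Gm25117, Vaultrc5, Rpph1, Gm22949 and Gm10974, of which Gm21961 and Gm10974 are annotated as protein-coding. Snora43, a guide RNA of ribosomal RNA modification, had 4.25 FPKM with the miR-182 inhibitor, 90.1 FPKM with the miR-203 inhibitor, 36.7 FPKM with the miR-708 inhibitor and 46.8 FPKM in control cells. Gm22356 and n-R5s115 lie in a locus that the tables give to 98 genes. The 12 highest were Snord45c, Gm25994, Gm8648, Gm24029, Gm26003, Gm23813, Snord42a, Xaf1, Gm25190, Gm24411, Isg15 and Mir3098. Snord45c had 174 FPKM with the miR-182 inhibitor, 12.05 FPKM with the miR-203 inhibitor, 46.3 FPKM with the miR-708 inhibitor and 34.7 FPKM in control cells. Mir677 stands for a locus that the annotation calls a small nucleolar RNA. Xaf1 and Isg15 are thus the only messenger RNAs among the 12 highest, in a set otherwise made up of small RNAs and 1 pseudogene.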

How the data were processed

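Messenger RNA was sequenced from 8 samples in 4 groups of 2. The submitters' processing notes name TopHat2 2.0.9, Cuffdiff 2.1.1 and build mm10, and give no options, annotation or use of strand. The library kit marks strand, per the labels. The authors deposited 3 tables, each with 1 inhibitor and the control, and FPKM stand there as 1 value per group, taken as pooled over its 2 samples. Per gene, the deposited tables add a p-value, a q-value and a log2 ratio to the control. P and q of exactly 1 were taken as not tested. Library depth is unknown, so no interval, SD or test was possible, and FPKM scaling between groups is not stated.

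The miR-182 and miR-203 tables were joined on Ensembl ID (pandas 2.3.3, Python 3.11.15), and log2((miR-182 + 1)/(miR-203 + 1)) was computed where FPKM was 1 or more in either group. All 3 tables gave the same control FPKM. Dates had replaced 23 symbols, which were restored by ID. Of the IDs, 18525 matched GENCODE M21, which gave biotypes and 3′ UTRs (for each gene the transcript with the longest coding sequence, then the longest 3′ UTR). The scripts were tested on simulated data. Of all genes, 6809 share a locus with another gene, and reads of overlapping or near-identical genes may be divided.

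The members and the 40 gene lists were chosen with earlier results of these data known. Genes named are 11 adipose genes, the 12 highest and 12 lowest ratios at 5 FPKM or more, the 2 members with the widest ratio past 1.5-fold of each list (4 where 8 or more passed), and the 4 highest and 4 lowest ratios among genes with an 8-base site of each microRNA. Others were chosen after their values were seen, and some genes are not reported here. Alternatives were pseudocounts of 0.1 and 5, other level limits, median centring, single-gene loci, a fold of 2, 7-base sites and, chosen after seeing the data, protein-coding genes only.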

Additional observations from a re-analysis of the deposited data

How the results depend on the processing

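The counts of genes past 1.5-fold depend on the processing. The side of a named gene is set by which of its 2 FPKM values is larger. Pseudocounts, level limits, locus filters and fold thresholds cannot change that side, so its staying the same is no check. Median centring could change it and did not, but it moved ratios by only 0.01 on the log2 scale. The 281 higher and 331 lower genes became 487 and 511 with a pseudocount of 0.1, 90 and 130 with a pseudocount of 5, 142 and 187 at 5 FPKM or more in either group, 163 and 168 in loci with 1 gene, 72 and 110 at a 2-fold threshold, and 162 and 145 among protein-coding genes only, an alternative chosen after seeing the data. A larger pseudocount narrows the ratios of low genes, and fewer genes qualify under the other 4 settings, by construction. The counts stayed within 1.5 times without a level limit, with the mean of both groups at 1 FPKM or more and with median centring. Both seed-site medians moved by less than 0.1 on the log2 scale in the 4 alternatives run for each. That limit is wider than the medians themselves, -0.025 for miR-182 and -0.007 for miR-203, so it is no check on them. With 7-base sites the medians were -0.013 and -0.005. The interferon effector median was 1.15 with a pseudocount of 0.1, 0.39 with a pseudocount of 5, 0.62 without a level limit and 1.09 at 5 FPKM or more. Isg15, Xaf1, Rtp4, Oasl2, Gbp3 and Irgm1 met the 5 FPKM limit only through the miR-182 pool. That limit therefore favours members high in this pool, and the value of 1.09 is no check on the main one. The median of interferon sensors and factors was 0.10 at 5 FPKM or more, against 0.35. With a pseudocount of 5, the antigen presentation median fell from 0.59 to 0.38, and the chemokine and acute phase median from 0.33 to 0.19. A pseudocount of 5 took 11 named genes inside 1.5-fold, among them Mitf (0.57), H2-T23 (0.54), Lats2 (0.55) and Cbs (0.48), and median centring took Acot2 (-0.57) and Ankrd37 (-0.58). No paired analysis was possible because the columns are pooled per group and carry no replicate numbers, and for the same reason no replicate could be left out in turn. Depth is unknown, so how far counting error reaches into ratios of genes at low FPKM cannot be stated.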
